A study of Mus musculus with 686 samples.

Results

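The miR-183 cluster is a set of 3 miRNAs, mmu-miR-183-5p, mmu-miR-96-5p and mmu-miR-182-5p, whose genes lie side by side in the mouse genome. They were taken by name from the 1964 mature miRNAs of the deposited count table, and all 3 had counts in each of the 13 tissues. Levels are given as CPM, the counts of a miRNA per 1000000 miRNA counts of the same library. The 686 small RNA libraries came from 83 BALB/cAnNTac females of 3 or 8 months, with 1 library per animal and tissue. Every animal ate the same type of food bar. Flight mice (FL) lived on the International Space Station. Habitat ground control mice (HGC) stayed on Earth in the flight hardware, with food, temperature, humidity and carbon dioxide set to follow the flight, and vivarium ground control mice (VGC) lived in ordinary cages. In the live animal return group (LAR, 348 libraries), FL mice came back after 39.5 days and tissues were taken 2 to 4 days after splashdown and frozen at once. In the terminated group (TERM, 338 libraries), mice were killed 22 to 24 days after launch and the carcass was frozen whole and thawed for dissection, apart from the spleen, which was removed fresh. LAR and TERM thus differ in time, return, anaesthesia and freezing together, and these cannot be told apart. Within TERM, FL carcasses froze on the station while floating in air, and control carcasses froze in ground freezers. FL and its controls in TERM thus also differ in freezing, which cannot be told apart from flight. Mould on the food bars and double-density housing touched FL and HGC but not VGC. Brain of LAR and pancreas of TERM came from mice of 3 months alone, and a brain sample was the whole of 1 side of the brain.

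A miRNA guides a silencing complex to messenger RNAs, and its choice of targets rests mainly on bases 2 to 8, the seed. The cluster is made as a shared precursor transcript and is best known from sensory organs, where hair cells of the inner ear, photoreceptors, olfactory neurons and sensory ganglia carry it at high levels. Changes in the seed of miR-96 cause progressive hearing loss in mice and in people. Outside the sense organs the cluster is also known from epithelia, endocrine cells and activated lymphocytes. None of the 13 tissues is a sense organ.

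The mature sequences are shown because they decide which targets the members share. They come from RefSeq (GRCm38.p6), they run 5′ to 3′, and the seed is in capitals.
mmu-miR-183-5p: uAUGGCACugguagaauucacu
mmu-miR-96-5p: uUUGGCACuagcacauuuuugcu
mmu-miR-182-5p: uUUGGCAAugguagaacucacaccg
mmu-miR-1271-5p: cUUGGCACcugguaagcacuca
Each member has a seed of its own, but those of miR-96-5p and miR-182-5p share bases 2 to 7. Over the whole length, aligned from the first base, miR-183-5p and miR-182-5p are equal at 18 of 22 positions (81.8%), miR-183-5p and miR-96-5p at 13 of 22, and miR-96-5p and miR-182-5p at 12 of 23. mmu-miR-1271-5p, encoded on chromosome 13, is the only other mature mouse miRNA in the RefSeq table with the same bases 2 to 8 as a member, here miR-96-5p. It had 25 counts in all, spread over 21 of 686 libraries, so almost all counts with the miR-96 seed came from the cluster itself.

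In RefSeq GRCm38.p6 the 3 hairpins lie on the minus strand of chromosome 6, Mir183 at chr6:30169668-30169737, Mir96 at chr6:30169446-30169551 and Mir182 at chr6:30165918-30165992. The mature miRNAs occupy chr6:30169711-30169732, chr6:30169506-30169528 and chr6:30165962-30165986 in the same order. A gap of 116 bases separates Mir183 from Mir96 and a gap of 3453 bases separates Mir96 from Mir182, so the stretch covers 3820 bases. It overlaps no other annotated gene and is thus intergenic, with the nearest protein-coding genes Nrf1 at 12460 bases and Ube2h at 41552 bases. These coordinates are from another build than the authors' alignment, which used GRCm39.

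Counts on miRNAs ranged from 181393 to 30469295 per library with a median of 3875781. miR-183-5p and miR-182-5p had counts in all 686 libraries, and miR-96-5p was at 0 in 10 libraries, where a count of 0 allows up to 3 counts or between 0.6 and 2.67 CPM, as far as counting error goes. The labels were checked against the miRNA profile of each library, taken from 725 miRNAs without the members. By this check 166 libraries (24.2%) were closest to another tissue than the labelled one, and 118 of them came from 11 of the 44 sequencing pools. They are called mismatched here. They made up 46 of 57 libraries of mesenteric fat (MAT), 21 of 60 of brown fat (BAT), 19 of 59 of diaphragm, 7 of 58 of liver, 4 of 39 of pancreas and 0 of 25 of brain. Medians are therefore drawn for all libraries and for the matched ones, and the text gives those of all libraries unless it names the matched ones.

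The cluster was highest in pancreas and lowest in heart. For mmu-miR-183-5p the median was 744 CPM over 39 pancreas libraries (lowest 26.0, highest 1681) and 6.31 CPM over 50 heart libraries (lowest 2.08, highest 956), a 118-fold span. mmu-miR-182-5p ran from 2140 CPM in pancreas (lowest 25.4, highest 4145) to 10.2 CPM in heart (lowest 3.10, highest 1050), a 209-fold span. mmu-miR-96-5p had the widest span, 479-fold, from 547 CPM in pancreas (lowest 3.71, highest 1040) to 1.14 CPM in heart (lowest 0.208, highest 224). In the matched libraries alone the spans were 147-fold, 320-fold and 645-fold. The ranges of single libraries overlapped even between pancreas and heart, with mismatched libraries drawn as open points in the plot of levels.

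Between the ends, mmu-miR-183-5p followed an order of BAT with a median of 445 CPM, lung with 295, kidney with 268, thymus with 265, subcutaneous fat (SCAT) with 197, brain with 149, MAT with 146, gonadal fat (GAT) with 49.0, liver with 20.1, diaphragm with 14.9 and spleen with 13.4. mmu-miR-182-5p was at 1605 CPM in BAT, 555 in thymus, 425 in kidney, 396 in SCAT, 349 in lung, 183 in MAT, 151 in GAT, 142 in brain, 39.4 in liver, 24.1 in spleen and 18.8 in diaphragm. mmu-miR-96-5p was at 86.2 CPM in thymus, 80.6 in BAT, 60.3 in lung, 57.0 in kidney, 27.2 in brain, 21.6 in MAT, 21.5 in SCAT, 8.18 in spleen, 7.62 in liver, 5.56 in GAT and 1.75 in diaphragm. Over all libraries brown fat therefore stood next to pancreas for miR-182-5p and miR-183-5p, while thymus took that place for miR-96-5p. In the matched libraries BAT took it for miR-96-5p too, at 101 CPM against 91.0 CPM in thymus. The level in MAT was lower in its matched libraries, where the medians over 11 libraries were 32.8 CPM for miR-183-5p, 50.5 for miR-182-5p and 11.4 for miR-96-5p. In brain, the SD of log2(CPM + 1) was 1.92 for miR-183-5p, 1.91 for miR-182-5p and 2.23 for miR-96-5p, although all 25 libraries had a brain profile. The brain median of miR-183-5p was 699 CPM in LAR, above BAT of LAR at 566 CPM. In TERM it was 142 CPM, below SCAT of TERM at 168 CPM.

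**Figure D1:**
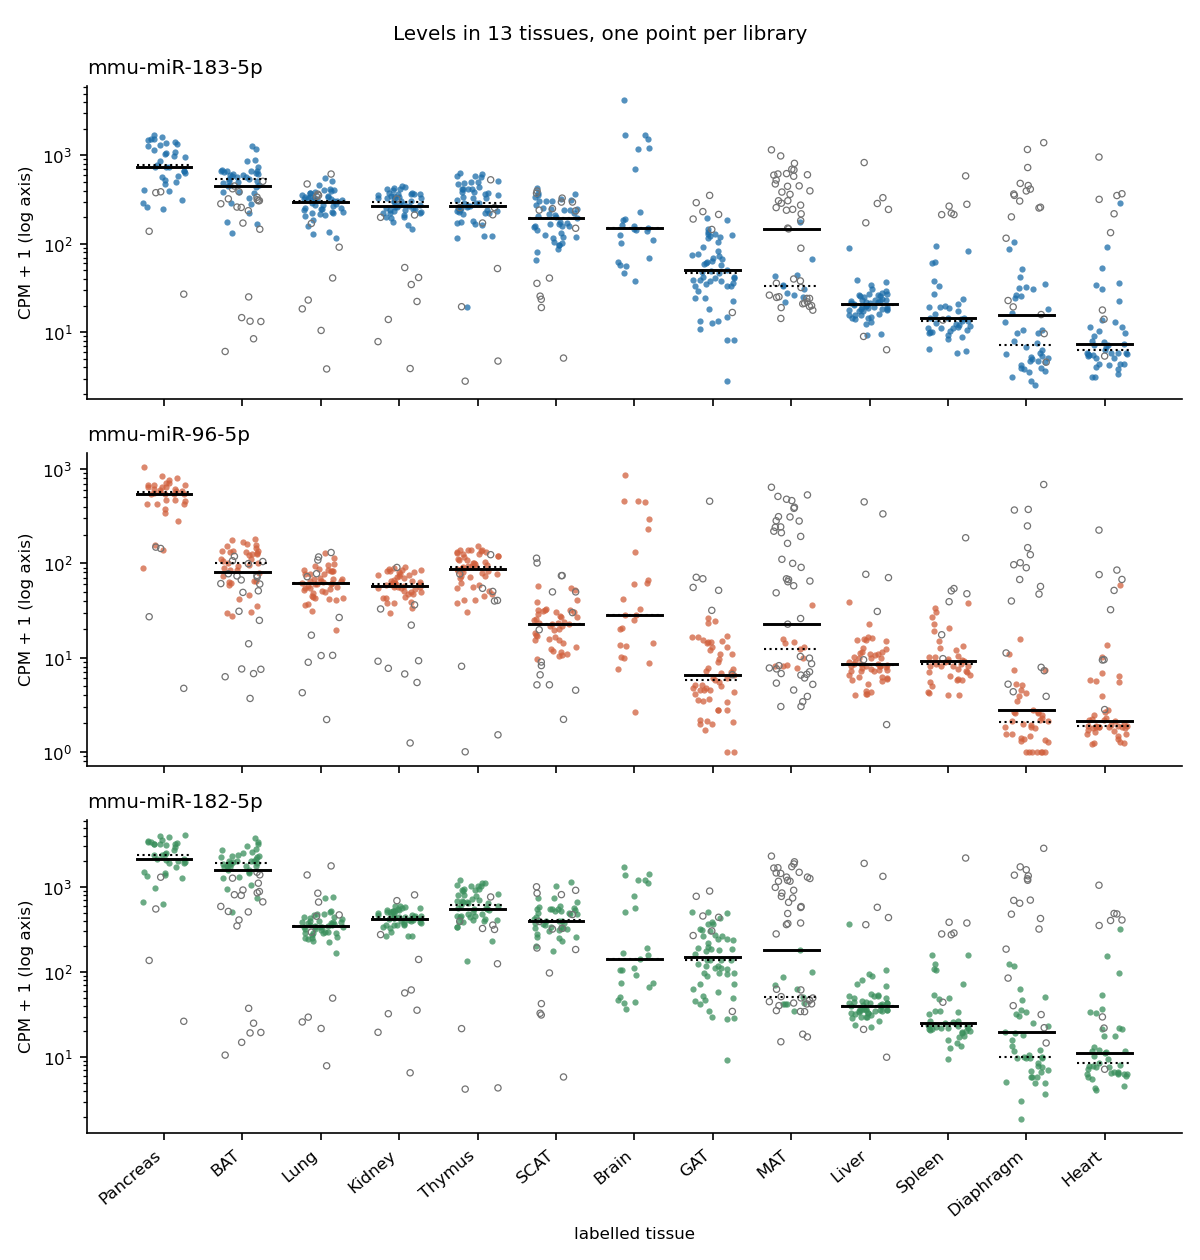
CPM + 1 (log axis) of each member in every library, by labelled tissue; filled points are matched libraries, open points are mismatched ones, the solid bar is the median of all libraries and the dotted bar that of the matched ones. Pancreas leads in each panel, heart is last, and the bars part most in MAT, where the miR-183-5p median is 146 CPM over all libraries and 32.8 CPM over the matched ones.

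Most neighbours in these orders could not be separated within animals. Each neighbouring pair of tissues was compared over the mice that had both, by a sign-flip permutation test on log2(CPM + 1) (2-sided, Benjamini-Hochberg over 36 pairs), and 7 of 36 pairs differed. mmu-miR-96-5p was higher in pancreas than in thymus by 2.27 on the log2 scale (SD of the differences 1.56, n = 38, permutation adjusted p = 0.00036) and in 35 of 38 mice. mmu-miR-183-5p was higher in pancreas than in BAT by 0.97 (n = 39, permutation adjusted p = 0.020, 29 of 39 mice). mmu-miR-182-5p did not separate pancreas from BAT (0.63, n = 39, permutation adjusted p = 0.26), but it was higher in BAT than in thymus by 1.04 (n = 58, 47 of 58 mice). It was also higher in brain than in liver by a mean of 3.13 (SD of the differences 2.00, n = 9, exact permutation adjusted p = 0.020) and in 9 of 9 mice. These mice were all of LAR and of 3 months, since no TERM mouse had both tissues. In brain the median of miR-182-5p was 634 CPM in LAR and 105 CPM in TERM, so the difference holds for LAR. The other pairs that differed were MAT above GAT (1.02) and GAT above liver (0.99) for miR-183-5p, and SCAT above spleen (0.89) for miR-96-5p. Without the mismatched libraries 17 of 36 pairs differed, and MAT then no longer stood above GAT for miR-183-5p (-0.27, n = 9). Of the 17, 1 ran against the order of the medians, that of MAT and SCAT for miR-96-5p (-0.94, SD of the differences 0.68, n = 9, exact permutation adjusted p = 0.026).

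The 3 members did not hold fixed proportions from tissue to tissue. Since ligation and amplification act differently on each sequence, shares of the summed cluster counts compare tissues and not members, and they were taken from libraries with at least 100 cluster counts. miR-182-5p made up a median of 74.4% in BAT and 70.7% in GAT, against 40.6% in brain. miR-183-5p made up 50.1% in brain and 21.5% in BAT. miR-96-5p took 15.5% in spleen (SD 5.42, n = 43) and 13.0% in pancreas (SD 5.64, n = 38), against 2.77% in GAT and 3.46% in SCAT. BAT, GAT and SCAT had the lowest median shares of miR-96-5p.

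The 5p strand dominated in each hairpin. Over all libraries the opposite strands made up 2.89% of the counts of both strands for mmu-miR-183-3p, 0.183% for mmu-miR-96-3p and 0.239% for mmu-miR-182-3p. Across the 13 tissue medians of log2(CPM + 1), compared with 602 miRNAs that reached 10 CPM in some tissue, Pearson's r was 0.97 between miR-183-5p and miR-182-5p, 0.93 between miR-183-5p and miR-96-5p and 0.92 between miR-96-5p and miR-182-5p, and 0.98 between miR-183-5p and miR-183-3p. Outside the locus the nearest patterns belonged to the miR-200 family, which is known for keeping epithelial cells in their state. For miR-183-5p these were miR-429-3p (r = 0.83) and miR-200b-3p (r = 0.83), for miR-96-5p miR-141-3p (r = 0.85) and miR-200a-3p (r = 0.85), and for miR-182-5p miR-200b-3p (r = 0.80) and miR-429-3p (r = 0.78). These correlations are a description over 13 points that share libraries and depth.

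The comparison of FL with HGC asks what the whole flight adds to habitat housing. It takes in launch stress and, in LAR, return stress with likely rough seas at splashdown, none of which HGC mice had. In LAR 2 of 39 combinations of member and tissue were called, both of them in liver (edgeR quasi-likelihood test, Benjamini-Hochberg adjusted p under 0.05), while 1.54% of all miRNA tests of this comparison over the 13 tissues were called. At an unadjusted p under 0.05 there were 10 of 39, against 12.3% of all tests, and DESeq2 called 1, against 1.65%. In TERM 0 of 39 were called by edgeR against a background of 0.307%, with 4 at an unadjusted p under 0.05 (background 9.18%) and 2 calls by DESeq2 (background 0.774%). The other 2 comparisons of arms use some of the same libraries. For FL vs. VGC in LAR, 0 of 39 were called by edgeR (background 0.736%), with 6 at an unadjusted p under 0.05 (11.3%) and 3 calls by DESeq2, all in heart (1.32%). In TERM 0 of 39 were called by edgeR (background 0.712%), with 6 at an unadjusted p under 0.05 (9.77%) and 7 calls by DESeq2 in brain, heart and spleen (0.567%). The smallest adjusted p by edgeR there was 0.05012, just over the threshold. Without the mismatched libraries the fold changes of FL vs. VGC in TERM ran from -2.01 to 3.00. HGC and VGC differ in housing and also in the mould on the food bars. Between them 0 of 39 were called by edgeR in LAR (background 0.176%), with 4 at an unadjusted p under 0.05 (11.4%) and 0 by DESeq2 (0.755%). In TERM 0 of 39 were called by edgeR (background 0.251%), with 5 at an unadjusted p under 0.05 (9.29%) and 1 by DESeq2 (0.518%). Bulk RNA cannot tell fewer cells that carry a miRNA from less of the miRNA per cell.

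**Figure D2:**
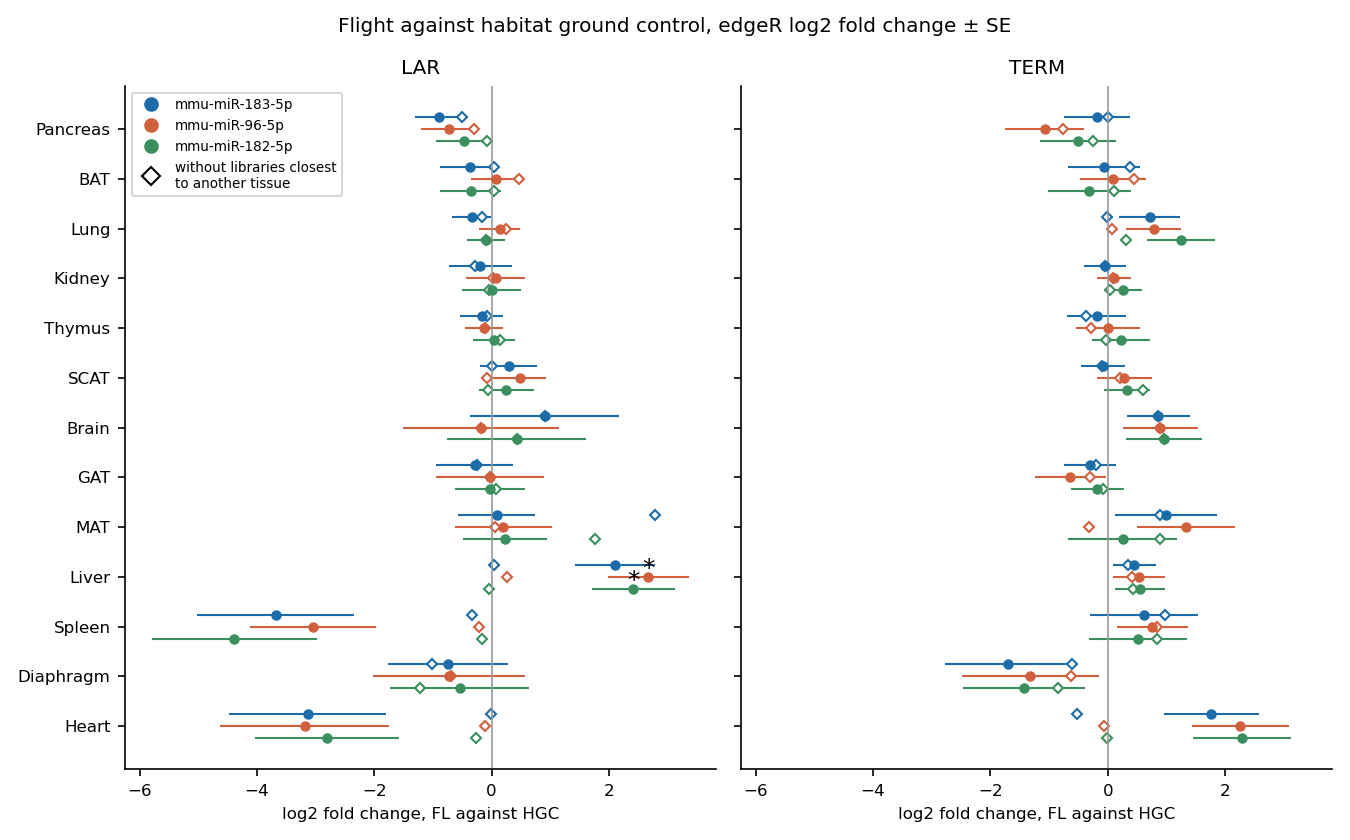
Log2 fold change of FL against HGC ± SE (edgeR) for each member in 13 tissues, in LAR and in TERM; stars mark adjusted p under 0.05 and open diamonds give the value without mismatched libraries. The starred points are miR-96-5p (2.67) and miR-182-5p (2.41) in liver of LAR, and their diamonds lie at 0.26 and -0.05.

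The liver calls moved with FL libraries that had a pancreas profile. In liver of LAR mmu-miR-182-5p was 27.6 to 42.7 CPM in 8 of 10 FL libraries, and 1335 and 1898 CPM in those of mouse 2 and mouse 4, while the 9 HGC libraries lay between 20.2 and 51.2 CPM. mmu-miR-96-5p was 4.84 to 15.4 CPM in the same 8 FL libraries, 333 and 447 CPM in the other two, and 3.31 to 10.1 CPM in HGC. The fold changes were 2.41 (SE 0.71, adjusted p = 0.035) for miR-182-5p, 2.67 (SE 0.69, adjusted p = 0.019) for miR-96-5p and 2.10 (SE 0.69, adjusted p = 0.065) for mmu-miR-183-5p by edgeR, where 6.11% of all miRNAs tested in liver were called. In the libraries of mice 2 and 4, miR-122-5p, the defining liver miRNA, was at 864 and 1613 CPM, against 259046 to 421021 CPM in the other FL livers. The exocrine pancreas miRNAs (miR-216a-5p, miR-216b-5p and miR-217-5p) summed to 19958 and 29193 CPM in these libraries and to at most 12.3 CPM in the other FL livers. Without the mismatched libraries the fold changes were -0.05 for miR-182-5p, 0.26 for miR-96-5p and 0.04 for miR-183-5p, with 0 of 3 called by edgeR. In the matched VGC livers miR-182-5p ran from 28.6 over a median of 48.5 to 104 CPM (n = 8), above the median of 34.5 CPM in FL (n = 8) and of 33.5 CPM in HGC (n = 8), with overlap. FL against VGC there was -0.66 (SE 0.22, edgeR adjusted p = 0.14, unadjusted p = 0.0051) and HGC against VGC -0.61 (SE 0.22, edgeR adjusted p = 0.76), whereas with all libraries FL against VGC stood at 0.84 (adjusted p = 0.54). Without FL mouse 4 alone both calls were lost (1.43, adjusted p = 0.21 for miR-182-5p, and 1.73, adjusted p = 0.097 for miR-96-5p), and that of miR-182-5p was also lost without FL mouse 2 (2.05, adjusted p = 0.099) or without any of the 8 matched HGC libraries (2.38 to 2.47, adjusted p from 0.051 to 0.065).

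Heart and spleen of LAR had large fold changes with wide errors. In heart mmu-miR-183-5p lay between 2.86 and 7.07 CPM in FL (n = 6), and in HGC (n = 6) between 4.18 and 6.68 CPM apart from a mismatched library at 317 CPM. The fold changes of FL against HGC in heart were -3.13 (SE 1.34) for miR-183-5p, -2.81 (SE 1.23) for mmu-miR-182-5p and -3.19 (SE 1.44) for mmu-miR-96-5p, with adjusted p from edgeR of 0.31 to 0.34. They were -0.01, -0.27 and -0.12 without the mismatched libraries. In spleen miR-182-5p lay between 20.9 and 157 CPM in FL (n = 6) and between 18.1 and 157 CPM in the matched HGC libraries (n = 5), while a mismatched HGC library was at 2193 CPM. Its fold change was -4.38 (SE 1.41, edgeR adjusted p = 0.20), and -0.16 without the mismatched libraries. In heart of TERM the fold changes were positive, 2.29 for miR-182-5p, 2.26 for miR-96-5p and 1.76 for miR-183-5p (edgeR adjusted p from 0.18 to 0.34), and -0.01, -0.06 and -0.53 without the mismatched libraries, 3 of 9 in FL and 1 of 9 in HGC. The groups overlapped in each of these comparisons. Without the mismatched libraries 0 of 39 combinations were called in LAR by edgeR (1 at an unadjusted p under 0.05), and that 1 was miR-183-5p in MAT, at 2.78 (SE 1.03, adjusted p = 0.84) from 4 matched libraries, of which FL had 1. This was against 10.1% of all tests of that refit at an unadjusted p under 0.05. FL vs. VGC in the same libraries had 0 of 39 called by edgeR (0.259% of all tests), with 7 at an unadjusted p under 0.05 (9.87%), all of them lower in FL. These were the 3 members in diaphragm (-2.14 to -1.93, adjusted p from 0.31 to 0.47), the 3 in heart (-2.34 to -1.99, adjusted p from 0.47 to 0.496) and miR-182-5p in liver. The groups overlapped, and in heart the matched VGC libraries reached 291 CPM of miR-183-5p over a median of 4.82 CPM (n = 8), against 4.77 CPM in FL (n = 5). Over all 39 combinations the fold changes spanned -4.38 to 2.67 in LAR and -1.70 to 2.29 in TERM, with medians of -0.13 and 0.26.

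In BAT, lung, kidney and thymus of LAR none of the 3 members differed between arms by the test once mismatched libraries were set aside. The fold changes of the 12 combinations were -0.28 to 0.46 for FL vs. HGC, -0.16 to 0.39 for FL vs. VGC and -0.20 to 0.25 for HGC vs. VGC, with 0 called by edgeR and 0 at an unadjusted p under 0.05 in each. A member is shown for each tissue. In BAT mmu-miR-182-5p ran from 1292 over a median of 2302 to 3177 CPM in FL (n = 7) and from 1728 over 2027 to 3744 CPM in HGC (n = 9), with a fold change of 0.04 (SE 0.24, edgeR adjusted p = 0.98). In lung mmu-miR-183-5p ran from 231 over 323 to 409 CPM in FL (n = 8) and from 274 over 353 to 507 CPM in HGC (n = 10), with a fold change of -0.16 (SE 0.17, adjusted p = 0.72). In kidney miR-183-5p ran from 163 over 259 to 416 CPM in FL (n = 9) and from 198 over 331 to 439 CPM in HGC (n = 9), with a fold change of -0.28 (SE 0.20, adjusted p = 0.58). In thymus miR-182-5p ran from 657 over 963 to 1117 CPM in FL (n = 8) and from 547 over 828.6 to 958 CPM in HGC (n = 9), with a fold change of 0.15 (SE 0.20, adjusted p = 0.75). The groups overlapped in all 4 tissues, and with all libraries the fold changes were -0.36, -0.34, -0.19 and 0.04 in the same order, with larger errors (SE 0.52, 0.33, 0.53 and 0.36).

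In pancreas, the tissue richest in the cluster, FL libraries of LAR had lower levels that did not pass the test. mmu-miR-183-5p had its lowest FL library at 26.0 CPM, the median at 625 and the highest at 1266 (n = 10), against 744, 1320 and 1613 CPM in HGC (n = 8) and 249, 1123 and 1681 CPM in VGC (n = 10). mmu-miR-96-5p ran from 3.71 over a median of 331 to 671 CPM in FL, from 154 over 622 to 797 CPM in HGC and from 138 over 552 to 704 CPM in VGC. mmu-miR-182-5p ran from 25.4 over a median of 2045 to 3950 CPM in FL, from 962 over 3201 to 3558 CPM in HGC and from 638 over 3034 to 4145 CPM in VGC. The FL medians were the lowest of the 3 arms for each member, and all groups overlapped. The fold changes of FL against HGC were -0.89 (SE 0.41, unadjusted p = 0.037, adjusted p = 0.41) for miR-183-5p, -0.73 (adjusted p = 0.54) for miR-96-5p and -0.48 (adjusted p = 0.72) for miR-182-5p by edgeR. Against VGC they were -0.82, -0.74 and -0.52 in the same order (adjusted p 0.23, 0.42 and 0.57). Of the 10 FL libraries 3 were mismatched, with profiles of gonadal fat, mesenteric fat and brain, against 0 of 8 in HGC and 0 of 10 in VGC. Without them the fold changes against HGC were -0.50 for miR-183-5p, -0.30 for miR-96-5p and -0.07 for miR-182-5p. The lowest miR-183-5p among the libraries that counted as matched went with few exocrine pancreas miRNAs in every arm. These summed to 1751 CPM in FL mouse 16, 1609 CPM in HGC mouse 14 and 5081 CPM in VGC mouse 14, against at least 17196 CPM in the other matched libraries of LAR. The lymphoid list stood at 126597 CPM in FL mouse 16 and at 104446 CPM in VGC mouse 14, and the striated muscle list at 117749 CPM in HGC mouse 14. With libraries over 10000 CPM of exocrine miRNAs alone (6 FL, 7 HGC and 9 VGC), a level set after the values were seen, the fold changes against HGC were -0.49, -0.31 and -0.08 for miR-183-5p, miR-96-5p and miR-182-5p.

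In pancreas of TERM the arms held 4, 5 and 2 libraries. The FL libraries had mmu-miR-183-5p at 138, 632, 469 and 261 CPM, those of HGC at 744, 502, 399, 313 and 410 CPM and those of VGC at 526 and 562 CPM. mmu-miR-96-5p was at 26.1, 452, 343 and 429 CPM in FL, at 756, 577, 706, 584 and 1040 CPM in HGC and at 539 and 851 CPM in VGC. For miR-96-5p all 4 FL libraries lay below all 5 HGC libraries and below both VGC libraries, whereas the groups overlapped for miR-183-5p. Of 702 miRNAs tested in pancreas of TERM, 9 (1.28%) had all FL libraries below both control groups and 2 (0.285%) had them above. mmu-miR-182-5p was at 136, 1954, 1452 and 1356 CPM in FL, at 1897, 1712, 3826, 1260 and 1517 CPM in HGC and at 1395 and 2382 CPM in VGC, with overlap. The fold change of FL against HGC was -1.08 for miR-96-5p (edgeR adjusted p = 0.51), -0.18 for miR-183-5p and -0.51 for miR-182-5p, and against VGC it was -0.995, -0.408 and -0.469 (edgeR adjusted p 0.94 to 0.96). None passed the test, and the lowest library, FL mouse 1, had a mesenteric fat profile with exocrine pancreas miRNAs at 155 CPM, against 21587 to 64448 CPM in the other FL libraries. Without it miR-96-5p stood at -0.76 against HGC (edgeR adjusted p = 0.80), and miR-183-5p at 0.01.

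**Figure D3:**
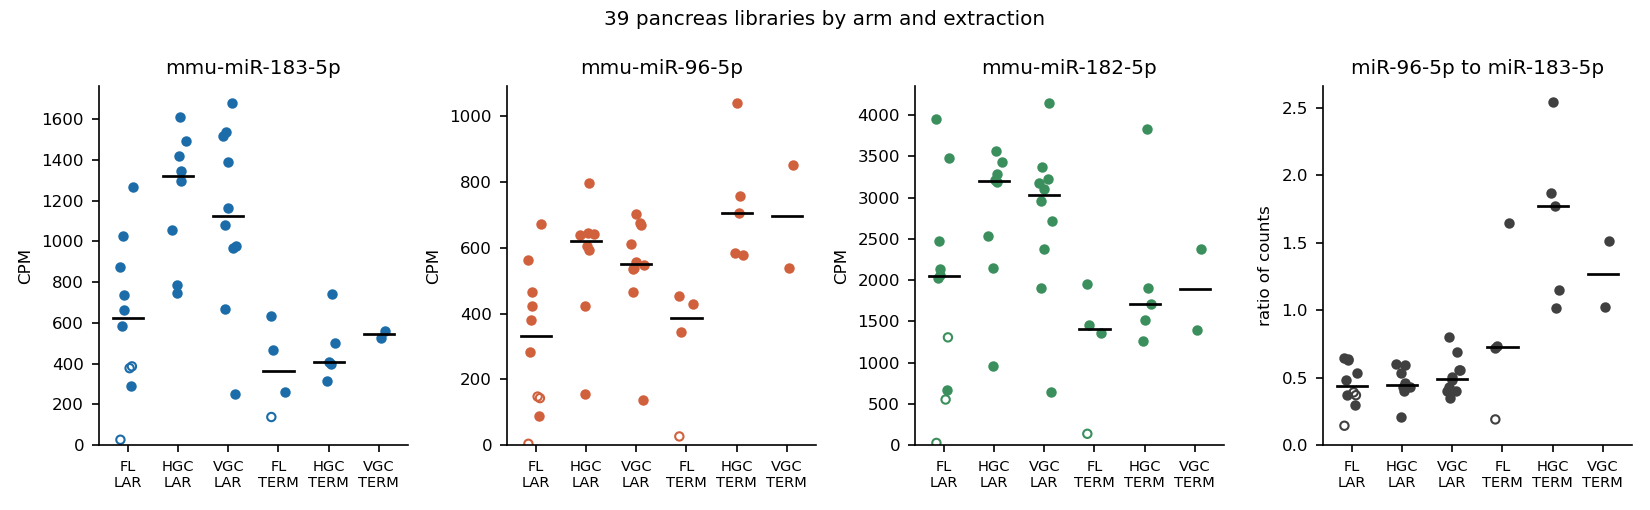
CPM of each member and the ratio of miR-96-5p to miR-183-5p counts (linear axes from 0) in 39 pancreas libraries by arm and extraction; open points are mismatched libraries and bars are medians of all libraries. miR-183-5p has a median of 1004 CPM in LAR and 469 CPM in TERM, and at 3 months the ratio has a median of 0.430 in LAR and 1.15 in TERM.

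Pancreas had a lower level of mmu-miR-183-5p in TERM than in LAR, while mmu-miR-96-5p did not pass the test. Over the 3 arms miR-183-5p was higher in LAR by 1.12 (SE 0.36, edgeR adjusted p = 0.026), mmu-miR-182-5p by 0.62 (adjusted p = 0.28), and miR-96-5p stood at -0.16 (SE 0.39, adjusted p = 0.85), where 15.9% of all miRNAs in pancreas were called. The median fold change over the 843 miRNAs tested was 0.435, so the typical miRNA also stood higher in LAR. Without the mismatched libraries miR-183-5p was at 1.05 with an adjusted p of 0.0029. With libraries over 10000 CPM of exocrine miRNAs alone (22 of LAR and 10 of TERM) the differences were 1.21 for miR-183-5p, 0.71 for miR-182-5p and -0.07 for miR-96-5p. That level was set after its libraries were seen to be low in the cluster, so these values are a description with no test. With mice of 3 months alone, the only age in TERM, it was at 1.06 with an adjusted p of 0.093, and with plate as a term at 1.00 with an adjusted p of 0.063. The call was also lost without FL mouse 3 of LAR (0.96, adjusted p = 0.053) and without VGC mouse 2 or 3 of TERM (1.12, adjusted p of 0.12 and 0.13). Among mice of 3 months, the ratio of miR-96-5p to miR-183-5p counts was 0.143 to 0.635 with a median of 0.430 in LAR (n = 15) and 0.190 to 2.54 with a median of 1.15 in TERM (n = 11). Among the matched libraries of 3 months the ratios were 0.207 to 0.635 in LAR (n = 13) and 0.716 to 2.54 in TERM (n = 10), which did not overlap. With the mice of 8 months included, those of LAR reached 0.79977 (n = 25) and overlapped with TERM. The pair of miRNAs was set apart after its values were seen, so the ratio carries no test. How many other pairs of miRNAs separate in this way was not counted, in a comparison where 15.9% of all miRNAs were called. The median ratio over all pancreas libraries of TERM was the highest of 26 combinations of tissue and extraction, and the next was spleen of LAR at 0.573.

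Brain libraries of LAR fell far apart within every arm. In FL mmu-miR-183-5p was at 46.2, 1170, 149 and 4201 CPM, in HGC at 1711, 68.3, 1686 and 60.8 CPM and in VGC at 1541, 1218, 125 and 228 CPM. mmu-miR-96-5p was at 8.83, 459, 65.5 and 454 CPM in FL, at 866, 7.71, 450 and 6.58 CPM in HGC and at 232, 295, 19.3 and 31.9 CPM in VGC, in the same mice. mmu-miR-182-5p was at 42.8, 1207, 158 and 1730 CPM in FL, at 1376, 65.2, 1222 and 45.9 CPM in HGC and at 1109, 1438, 104 and 142 CPM in VGC. All 3 members were high in the same 2 mice of each arm and low in the other 2, so the spread lay within arms and not between them. FL against HGC was 0.90 (SE 1.27) for miR-183-5p, -0.18 (SE 1.33) for miR-96-5p and 0.42 (SE 1.18) for miR-182-5p, and 0 of 9 combinations of member and pair of arms was called by edgeR, with 0 at an unadjusted p under 0.05 and 0 by DESeq2.

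The miR-200 family was high in the same brain libraries. Its 5 members (miR-200a-3p, miR-200b-3p, miR-200c-3p, miR-141-3p and miR-429-3p) summed to 124, 4736, 741 and 8055 CPM in FL, to 6502, 164, 10025 and 79.6 CPM in HGC and to 7249, 12415, 469 and 427 CPM in VGC, in the order of mice used above. With a threshold of 1000 CPM, chosen after the values were seen, miR-183-5p was above it in 6 of 12 libraries of LAR, and the miR-200 sum was above it in the same 6. In TERM miR-183-5p was above it in 0 of 13 libraries (36.8 to 693 CPM), and the miR-200 sum in 4. The brain list (miR-124-3p, miR-9-5p and miR-128-3p) summed to between 81201 and 301560 CPM in LAR and between 129679 and 290505 CPM in TERM. miR-375-3p, a miRNA of endocrine cells that also marks pituitary, had a median of 160 CPM in LAR (44.1 to 4518) and 223 CPM in TERM (57.8 to 7542). miR-204-5p, which is abundant in choroid plexus and pigment epithelium, had a median of 12319 CPM in LAR and 21296 CPM in TERM. The exocrine pancreas miRNAs summed to a median of 17.5 CPM in LAR (8.47 to 499.9) and 17.2 CPM in TERM (4.48 to 1698). The part of other cell types or attached tissue in the high brain libraries was not tested.

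**Figure D4:**
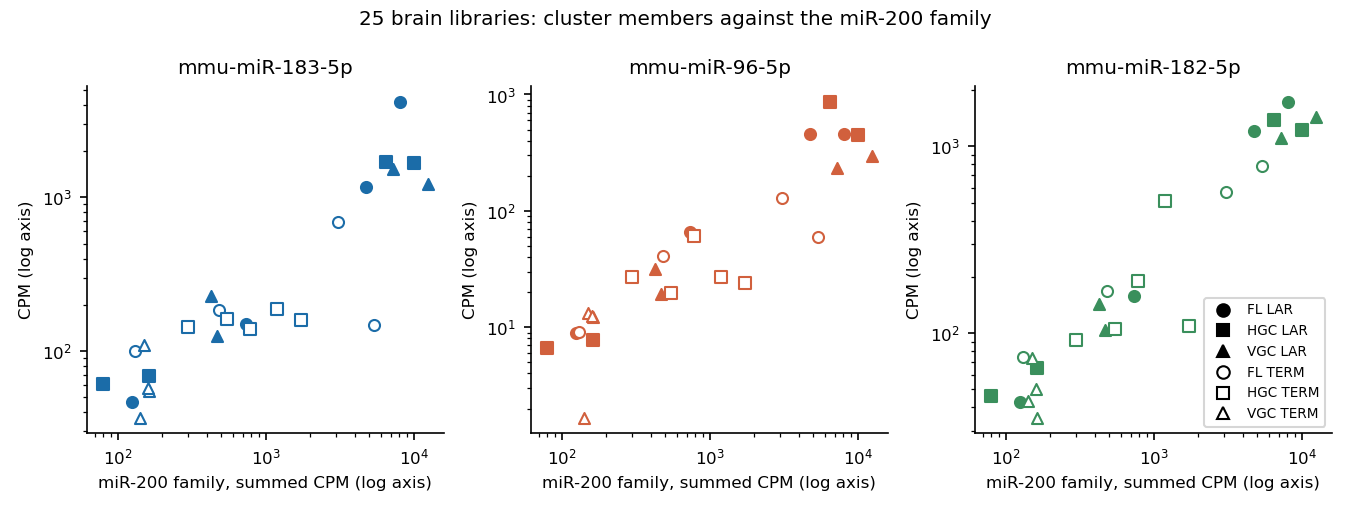
CPM of each member against the summed CPM of 5 miR-200 family miRNAs in 25 brain libraries (both axes log); filled symbols are LAR, open ones TERM, and shapes give the arm. In LAR 6 of 12 libraries lie above 1000 CPM for miR-183-5p and also for the miR-200 sum, with 2 from each arm.

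Over the 3 arms, brain of LAR exceeded brain of TERM by 2.76 for mmu-miR-183-5p (SE 0.61, edgeR adjusted p = 0.016) and by 3.01 for mmu-miR-96-5p (SE 0.67, adjusted p = 0.016), where 1.47% of all miRNAs in brain were called. mmu-miR-182-5p was higher by 2.13 (SE 0.60, adjusted p = 0.073). The groups overlapped from 46.2 to 693 CPM for miR-183-5p, and without FL mouse 17 of LAR its value was 2.17 with an adjusted p of 0.052. With plate as a term the differences were 1.75, 2.43 and 1.496, and 0 of 3 was called by edgeR (adjusted p from 0.28 to 0.50, 3 at an unadjusted p under 0.05). With mice of 3 months alone they were 3.28, 3.83 and 3.20 (adjusted p from 0.060 to 0.064). In TERM the 4 FL brains (100, 184, 147 and 693 CPM of miR-183-5p) overlapped with the 4 VGC brains (109, 36.8, 54.8 and 57.0 CPM). FL against VGC was 2.22 for miR-183-5p, 2.63 for miR-96-5p and 3.00 for miR-182-5p, with adjusted p from edgeR of 0.16 to 0.19, while DESeq2 called all 3, and 1.13% of all miRNAs in this comparison of brain. The habitat controls of TERM also stood above VGC. The 5 HGC brains had miR-183-5p at 158, 142, 163, 140 and 188 CPM, and miR-96-5p at 19.7 to 60.6 CPM against 1.67 to 13.2 CPM in VGC. For each of the 3 members all HGC brains lay above all VGC brains, as did 16 of 1008 miRNAs tested there (1.59%). In each arm the library highest in miR-182-5p also held miRNAs of other tissues. FL mouse 17 (785 CPM) had exocrine pancreas miRNAs at 1698 CPM and the striated muscle list at 27320 CPM. HGC mouse 18 (509 CPM) had miR-122-5p at 28252 CPM, and VGC mouse 7 (73.3 CPM) had it at 18053 CPM. The part of such tissue in these differences was not tested. HGC against VGC was 1.35, 1.74 and 2.05 for miR-183-5p, miR-96-5p and miR-182-5p (edgeR adjusted p from 0.82 to 0.84, 3 at an unadjusted p under 0.05, 0 called by DESeq2). FL against HGC was 0.86, 0.90 and 0.95 in the same order (edgeR adjusted p = 1.00 for each, 0 at an unadjusted p under 0.05).

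Mesenteric fat was higher in LAR than in TERM for all 3 members, and the difference moved with pancreas miRNAs. mmu-miR-183-5p had a median of 334 CPM in LAR (16.8 to 1154, n = 28) and 27.1 CPM in TERM (13.3 to 579, n = 29). mmu-miR-96-5p had a median of 214 CPM in LAR (2.87 to 640) and 7.38 CPM in TERM (2.02 to 192). mmu-miR-182-5p had a median of 1079 CPM in LAR (16.3 to 2310) and 46.0 CPM in TERM (14.1 to 1259). The differences were 1.86 (SE 0.47, adjusted p = 0.0014), 3.14 (SE 0.53, adjusted p = 9e-06) and 2.22 (SE 0.52, adjusted p = 0.0007) by edgeR, in a tissue where 37.5% of all miRNAs were called. The exocrine pancreas list passed 1000 CPM in 20 of 28 libraries of LAR, with a median sum of 16122 CPM, and in 3 of 29 of TERM, with a median sum of 61.1 CPM. The summed cluster was over 500 CPM in 19 of those 20 LAR libraries and in 2 of the other 8. By profile, 19 of 28 LAR libraries were closest to pancreas and 11 of 29 TERM libraries to spleen. In the 11 matched libraries the differences were 0.52, -0.48 and 0.40 (4 against 7 libraries), and 0 of 3 was called by edgeR, with 0 at an unadjusted p under 0.05.

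**Figure D5:**
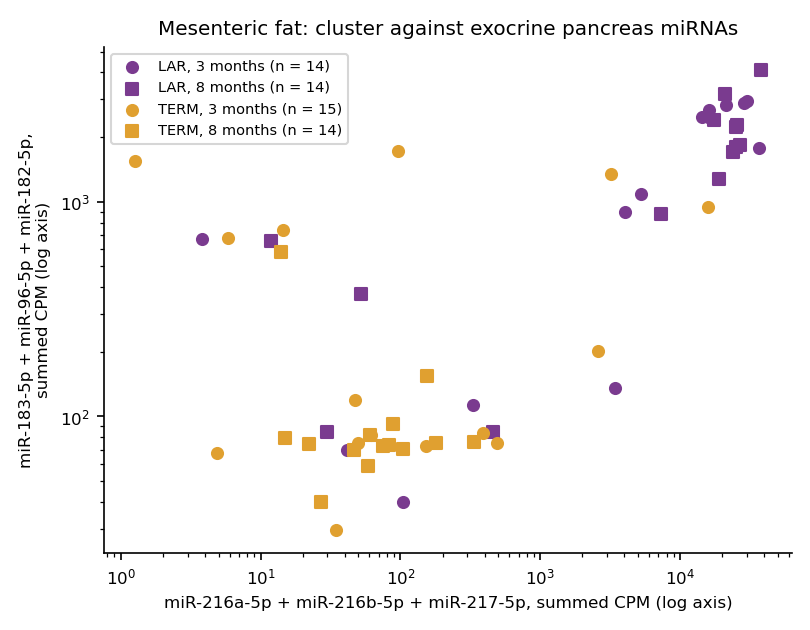
Summed CPM of the 3 cluster members against that of 3 exocrine pancreas miRNAs in 57 mesenteric fat libraries (both axes log), by extraction and age. Of the 23 libraries with an exocrine sum over 1000 CPM, 21 have a cluster sum over 500 CPM, against 7 of the 34 others.

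Mesenteric fat of TERM was the tissue where age was called by edgeR, while DESeq2 also called miR-96-5p in SCAT and miR-182-5p and miR-183-5p in spleen of TERM. The 3 members were lower at 8 than at 3 months, mmu-miR-182-5p with a change of -3.00 (SE 0.66, edgeR adjusted p = 0.0034), mmu-miR-96-5p of -2.58 (SE 0.58, adjusted p = 0.0037) and mmu-miR-183-5p of -2.30 (SE 0.63, adjusted p = 0.016). These were 3 of 36 combinations called in TERM against a background of 1.83%, with 13.9% of all miRNAs called in this tissue. In TERM 10 of 36 had an unadjusted p under 0.05 (background 14.5%) and DESeq2 called 6 (4.72%). In LAR 0 of 36 were called by edgeR (background 0.296%), with 4 at an unadjusted p under 0.05 (10.7%) and 0 by DESeq2 (1.05%). miR-182-5p had a median of 69.1 CPM at 3 months (14.1 to 1259, n = 15) and 42.5 CPM at 8 months (17.6 to 280, n = 14), so the groups overlapped and the highest libraries were young. Profiles differed between the ages too. At 8 months 10 of 14 libraries were closest to spleen and 1 to mesenteric fat, and at 3 months 1 of 15 was closest to spleen, 2 to pancreas and 6 to mesenteric fat. The lymphoid list (miR-150-5p, miR-142a-3p and miR-181a-5p) had a median sum of 122601 CPM at 8 months and 40188 CPM at 3 months. With plate as a term the changes were -0.68, -1.17 and -0.28 with none called by edgeR, and the age fit could not be made from matched libraries, of which 1 was from a mouse of 8 months. Without HGC mouse 5, a library of brown fat profile, miR-183-5p changed by -1.48 (adjusted p = 0.062), miR-182-5p by -1.89 (adjusted p = 0.012) and miR-96-5p by -2.14 (adjusted p = 0.0092).

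In all tissues, 6 of 39 combinations were called between LAR and TERM, each higher in LAR, against a background of 6.81%. An unadjusted p under 0.05 was found in 15 of 39 (background 19.9%), and DESeq2 called 8 (11.0%). The 6 calls by edgeR were the 3 in MAT, 2 in brain and 1 in pancreas. Without the mismatched libraries 6 were called as well (background 6.99%, with 38.8% of all miRNAs called in thymus and 1.66% in BAT), but those of MAT gave way to mmu-miR-183-5p and mmu-miR-182-5p in thymus and miR-183-5p in BAT. In matched thymus libraries miR-183-5p had a median of 413 CPM in LAR (176 to 627, n = 25) and 237 CPM in TERM (18.3 to 494, n = 24), a difference of 0.66 (SE 0.16, edgeR adjusted p = 0.0011). miR-182-5p in the same libraries had medians of 806 and 483 CPM and differed by 0.53 (adjusted p = 0.00087), while mmu-miR-96-5p differed by 0.06 (adjusted p = 0.77). In matched BAT libraries miR-183-5p had medians of 620 and 454 CPM and differed by 0.72 (adjusted p = 0.0498).

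Whether flight acted differently in LAR and TERM, or at 3 and 8 months, was tested by interaction terms. For flight by extraction 0 of 39 were called by edgeR against a background of 1.04%, with 10 at an unadjusted p under 0.05 (10.7%) and 3 by DESeq2 (1.45%), and the smallest adjusted p, 0.071, was in heart. For flight by age 0 of 36 were called in LAR by edgeR against a background of 0.113%, with 2 at an unadjusted p under 0.05 (9.29%) and 1 by DESeq2 (0.788%). In TERM 0 of 36 were called by edgeR against a background of 1.06%, with 3 at an unadjusted p under 0.05 (10.7%) and 0 by DESeq2 (2.32%). Without the mismatched libraries flight by extraction had 0 of 39 at an unadjusted p under 0.05, with differences between -1.29 and 1.45, against 8.22% of all tests. For flight by age, which could not be fitted for MAT there, 0 of 33 were called by edgeR in LAR and in TERM, with 6 of 33 at an unadjusted p under 0.05 in each (7.09% and 7.83% of all tests). In LAR these were the 3 members in spleen (2.67 to 3.21) and in GAT (-2.54 to -2.07), with adjusted p from 0.27 to 1.00. In TERM they were mmu-miR-182-5p in spleen, diaphragm, heart and liver (2.78, 2.76, -3.76 and -1.45), mmu-miR-183-5p in spleen (1.71) and mmu-miR-96-5p in BAT (1.68), with adjusted p from 0.28 to 0.65.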

How the data were processed

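The authors made small RNA libraries (MGIEasy kit, pools of 16, BGISEQ), mapped reads to GRCm39 and miRBase with miRMaster, and deposited expected counts per mature miRNA, of which 0.790% were fractional. They were rounded to whole numbers here. Files of other RNA classes were not used. No column was left unmapped. CPM values are scaled to 1000000 miRNA counts per library, and levels are on log2(CPM + 1). Counts were fitted with edgeR 4.0.16 in R 4.3.3 (TMM factors, quasi-likelihood test, FL, HGC and VGC as groups in a fit for each tissue and extraction, miRNAs with at least 5 counts in 10% of the libraries of an arm), with Benjamini-Hochberg adjustment over all miRNAs of the fit and a threshold of 0.05. Age had its own fit with arm and age as groups, and LAR against TERM a fit per tissue with arm and extraction as groups. Age was no term in the arm and extraction fits. A fold change is on the log2 scale throughout.

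Members and miRNA lists were chosen with earlier results of these data known. The text names the 3 members, their opposite strands, the miRNA sharing a seed, the 5 miRNAs whose tissue medians were most like each member, and the marker lists where a result turned on them. Pools and plates came from the study's sample list. A library's profile is the tissue whose median profile it resembled most. Per the study's methods, tissues were placed at random over plates and mice shared habitats or cages, so p-values measure the spread between animals that were partly housed together. Depth was 181393 to 30469295 miRNA counts per library, and intervals cover counting error only. Alternatives were DESeq2 1.42.0, a rank-sum test, the call rule of the study, other filters, no scaling factors, plate as a term, a replicate block, and leaving out mismatched libraries or doubted pools. In some tissues each library was also left out in turn, but not in heart, spleen or pancreas of LAR for the arms. The fit at 3 months alone, the pancreas fit by exocrine miRNAs and the libraries left out in turn for LAR against TERM and for age were added after the data were seen. Scripts were tested on simulated data.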

Additional observations from a re-analysis of the deposited data

Results flagged for a closer look

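In groups of 4 to 10 libraries of brain, liver, mesenteric fat and pancreas, 21 of 69 combinations of group and member had a library far from the others by Dixon's test, where chance gives about 1 in 20. In brain of TERM miR-96-5p was high in HGC mouse 17 (60.6 CPM, others 19.7 to 27.2) and low in VGC mouse 8 (1.67 CPM, others 12.2 to 13.2). In liver of TERM FL mouse 1 had miR-183-5p at 89.0 CPM (others 8.53 to 25.2) and miR-182-5p at 367 CPM (others 22.6 to 40.5). HGC mouse 11, with a heart profile, had miR-183-5p at 5.35 CPM (others 14.1 to 26.4). VGC mouse 14, with a thymus profile, had miR-183-5p at 172 CPM (others 8.24 to 32.9), miR-96-5p at 75.4 CPM (others 3.09 to 11.2) and miR-182-5p at 360.0 CPM (others 28.8 to 66.7).

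In mesenteric fat of TERM HGC mouse 5, with a brown fat profile, had miR-183-5p at 396 CPM (others 20.7 to 88.2), miR-96-5p at 63.8 CPM (others 4.35 to 13.5) and miR-182-5p at 1260.0 CPM (others 34.2 to 60.6). In pancreas of LAR FL mouse 13, with a gonadal fat profile, had miR-183-5p at 26.0 CPM, miR-96-5p at 3.71 CPM and miR-182-5p at 25.4 CPM, where the lowest of the others were at 291, 87.1 and 551 CPM. HGC mouse 14 had miR-96-5p at 154 CPM (others 422 to 797) and miR-182-5p at 962 CPM, and VGC mouse 14 had miR-183-5p at 249 CPM, miR-96-5p at 138 CPM and miR-182-5p at 638 CPM, both closest to pancreas but with exocrine pancreas miRNAs at 1609 and 5081 CPM, against at least 17196 CPM in the other libraries of these arms. In pancreas of TERM FL mouse 1, with a mesenteric fat profile, had miR-96-5p at 26.1 CPM (others 343 to 452) and miR-182-5p at 136 CPM.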

How the results depend on the processing

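Counts of called combinations depended on the tool and on the libraries. FL vs. HGC in LAR went from 2 to 1 with DESeq2 and with the call rule of the study, and to 0 with the rank-sum test, with plate as a term, with the replicate block, without mismatched libraries and without doubted pools, and it was 3 without scaling factors. Other counts of 0 became 2 with DESeq2 and 6 with the study's rule for FL vs. HGC in TERM, 3 and 3 for FL vs. VGC in LAR, and 7 and 6 for FL vs. VGC in TERM, which had 1 without a filter and 1 without scaling factors. HGC vs. VGC went to 1 with the study's rule in LAR, and in TERM to 1 with DESeq2 and 5 with that rule. The study's rule was applied here to the CPM values and the filter of this report, so its calls need not be the authors' own. In TERM it called miR-182-5p in brain, miR-182-5p and miR-183-5p in diaphragm and the 3 members in heart for FL vs. HGC. Of all miRNAs tested, it called 2.14% in LAR and 2.38% in TERM for FL vs. HGC, 2.90% and 2.62% for FL vs. VGC, and 1.67% and 2.43% for HGC vs. VGC. Age in TERM went from 3 to 6 with DESeq2 and to 0 with plate as a term. Without mismatched libraries it was 0 of 33, but MAT, which held the 3 calls, could not be fitted there, so this is no loss of calls. LAR against TERM went from 6 to 12 without doubted pools, with a background of 9.53%, and to 4 with plate as a term (6.13%). At 3 months alone only brain and pancreas were refitted and had 0 of 6 called in place of 3, so the 3 left are those of MAT, which were not refitted. Flight by extraction went to 3 and flight by age in LAR to 1 with DESeq2, and flight by age in TERM to 1 without a filter. The causes were not tested. Neighbouring tissues that differed went from 3, 2 and 2 to 6, 5 and 6 for miR-183-5p, miR-182-5p and miR-96-5p without mismatched libraries.

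The value of miR-183-5p in pancreas of LAR for FL vs. HGC was -1.08 under the study's rule, which called it. In pancreas of TERM it turned to 0.0086 without mismatched libraries, and leaving out each library gave -0.65 to 0.0086, turning without FL mouse 1 or HGC mouse 1. For mmu-miR-182-5p in liver it turned to -0.0494 without doubted pools and -0.0484 without mismatched libraries, and for miR-96-5p in mesenteric fat between LAR and TERM to -0.48. The mean of miR-96-5p in heart was 3.97 on log2(CPM + 10). Libraries were left out in turn in some tissues alone. For arms these were liver and brain of LAR and brain and pancreas of TERM. For LAR against TERM they were brain and pancreas, and for age MAT of TERM. With other tissues as fitted, this gave 0 to 3 calls for FL vs. HGC in LAR and 0 to 3 for FL vs. VGC in TERM (3 in brain without FL mouse 7). It gave 5 to 7 for LAR against TERM and 2 to 3 for age in TERM.

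Mouse numbers repeat between arms for different animals. Deviations of same-numbered libraries had a mean correlation of 0.041 over 653 pairs (-0.70 to 0.97, 40.7% over 0.1), so the numbers were not taken as pairs. With the replicate block the count for FL vs. HGC in LAR was 0. In the 10 libraries where miR-96-5p was at 0, depth leaves levels of up to 0.6 to 2.67 CPM possible.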
